A study of Homo sapiens with 54 samples.

Results

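The genes described here are 32 ribosome biogenesis genes, which code for proteins that make, modify and assemble ribosomes. They were listed by name and by their known role, and all 32 were found by symbol among the 58735 genes of the bulk RNA table and among the 36601 genes of the single-cell matrices. By role they are 1 subunit of RNA polymerase I, 4 proteins of box C/D small nucleolar ribonucleoproteins (snoRNPs), 4 proteins of box H/ACA snoRNPs, 6 nucleolar chaperones or scaffolds, 7 factors of small subunit assembly and 10 factors of large subunit assembly. Their levels are set beside those of MYC in the same libraries.

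The study differentiated macrophages from the human embryonic stem cell line H1, either in a flat culture (2D) or in a porous three-dimensional microscaffold (3D), and compared the products. Of its 54 samples, 32 bulk RNA libraries in 11 groups and 3 single-cell libraries are used here. The labels call the cells of every sample macrophage and name no genetic change. The bulk groups are 2D at day 12 (n = 4), 3D at day 12 (n = 4), 3D at days 16, 19 and 23 (n = 3 each), 3D at the same 3 days with the label FBS (n = 3 each), 3D with SP6A or SP14 in the place of a time point (n = 2 each), and 3D with E. coli and no day (n = 2). The labels do not say what SP6A and SP14 stand for, nor the dose or duration of E. coli. The single-cell libraries are 3D at days 7, 9 and 12, with 1 library a day. All samples come from 1 cell line, and no label says that replicates were separate cultures, so the p-values measure the spread between these libraries, which may be technical.

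Ribosomes are assembled in the nucleolus. RNA polymerase I transcribes the long ribosomal RNA precursor, snoRNPs of the C/D class methylate it and those of the H/ACA class convert uridines in it to pseudouridine, and separate sets of assembly factors then fold, cut and export the small and the large subunit. MYC is a transcription factor that binds the E-box sequence CACGTG and is known to drive many genes of this pathway in growing cells, and macrophages that keep dividing are known to need it.

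The E-box letters began within the 100 bases before a start site for 6 of the 27 members with promoter sequence. These 100 bases are shown for 5 of the 6 and, for contrast, for nucleolin (NCL), which has no match. The gene not shown is RRP9, whose motif begins 5 bases before the start site and runs past it. The sequences are RefSeq's, build GRCh38.p14, written 5′ to 3′ on the gene's strand, with the motif CACGTG in capitals.
UTP4: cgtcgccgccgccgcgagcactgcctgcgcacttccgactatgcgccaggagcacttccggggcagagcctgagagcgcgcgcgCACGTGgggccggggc
DDX21: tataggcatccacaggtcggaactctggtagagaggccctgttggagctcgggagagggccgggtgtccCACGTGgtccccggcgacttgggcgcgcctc
LYAR: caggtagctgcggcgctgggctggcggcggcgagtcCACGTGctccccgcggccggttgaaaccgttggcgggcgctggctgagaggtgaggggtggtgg
NOP10: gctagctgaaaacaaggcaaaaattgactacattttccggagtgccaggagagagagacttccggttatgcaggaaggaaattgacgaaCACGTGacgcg
UTP20: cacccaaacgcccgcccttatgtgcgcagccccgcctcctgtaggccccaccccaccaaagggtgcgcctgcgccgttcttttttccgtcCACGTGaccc
NCL: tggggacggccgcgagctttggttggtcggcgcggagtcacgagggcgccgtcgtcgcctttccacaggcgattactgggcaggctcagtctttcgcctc
The UTP4 window is chr16:69132549-69132648 on the plus strand, with the motif starting 16 bases before the start site. The DDX21 window is chr10:68956547-68956646 on the plus strand, with the motif 31 bases before the start. The LYAR window is chr4:4290022-4290121 on the minus strand, with the motif 64 bases before the start. DDX21 and LYAR have a second listed start downstream of their first one, and both stretches lie before that second start and overlap the annotated gene; the window of the first start holds no match in either gene. The NOP10 window is chr15:34343137-34343236 on the minus strand, with the motif 11 bases before it. The UTP20 window is chr12:101280005-101280104 on the plus strand, with the motif 10 bases before the start, and the NCL window is chr2:231464485-231464584 on the minus strand. UTP4 and UTP20 are shown because their levels had the highest and the lowest correlation with MYC across the bulk groups, and both carry the motif.

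In RefSeq promoter windows of 300 bases (250 before to 50 after a start), 27 of the 32 members had at least 1 window and 36 windows in all. CACGTG, which reads the same on both strands, stood in 18 of the 36 windows (50%) and in at least 1 window of 17 of the 27 genes (63.0%). Of these 17 genes, 6 had it begin within 100 bases before a start, 2 further before and 9 only after the start. Over all genes with a window it stood in 7.26% of windows and for 8.77% of genes, and over protein-coding genes with a mean of at least 1 TPM in these libraries for 13.2% of genes. The share with a match that begins within 100 bases before a start was 22.2% of the members and 7.04% of these expressed protein-coding genes. That with a match only after the start was 33.3% and 1.18%. A match says only that these letters are in the window. NOP58, NOLC1, RRS1, BOP1 and RRP12 had no window in the table.

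Bulk values are TPM (transcripts scaled for gene length and to a fixed total per library), and the table gives no counts, so the depth behind each value is unknown. Markers of macrophages, which are 16 genes such as CD68 and CSF1R, were detected in every group (15 or 16 of 16, summed level 9121.7 to 22969.4 TPM). The 2 E. coli libraries stood apart: 7954 and 8103 genes reached 1 TPM against 11862 to 13257 in the other 30, mitochondrial genes took 17.15% to 25.24% of all TPM, and their log2 levels correlated at 0.657 with each other against 0.891 to 0.968 within the other groups. The 2 E. coli libraries also share 1 fit with the other 3D libraries, so counts without them are given beside each 3D comparison. Genes FP236383.2, FP236383.3 and FP671120.3 took 0.37% to 0.52% of all TPM in 2D and 24.14% to 32.28% in 3D day 19 with FBS. These, and no other genes named only by a clone, are the clone-named genes meant here.

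The 32 members together made up 2633 ± 96.2 TPM in 2D day 12 and 2947 ± 69.4 TPM in 3D day 12 (mean ± SD, n = 4 each), the highest of the 11 groups. The sum was 1941 ± 185, 1868 ± 80.2 and 1994 ± 118 TPM at days 16, 19 and 23 (n = 3 each), and these 3 ranges overlapped. With FBS it was 1117 ± 156, 925.8 ± 35.3 and 1306 ± 19 TPM at the same days. It was 1169 ± 29.2 TPM in SP6A, 1215 ± 27.4 TPM in SP14 and 1371 ± 169 TPM with E. coli (n = 2 each). Among single members the highest group mean belonged to 3D day 12 for 15 genes and to 2D for 7, and the lowest to the E. coli group for 13. On the TPM scale the most abundant member was NOP10, a small core protein of H/ACA snoRNPs, with group means between 386.1 and 1032 TPM, and the least abundant was UTP20, a large scaffold of the small subunit precursor, with group means of at most 2.13 TPM.

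**Figure D1:**
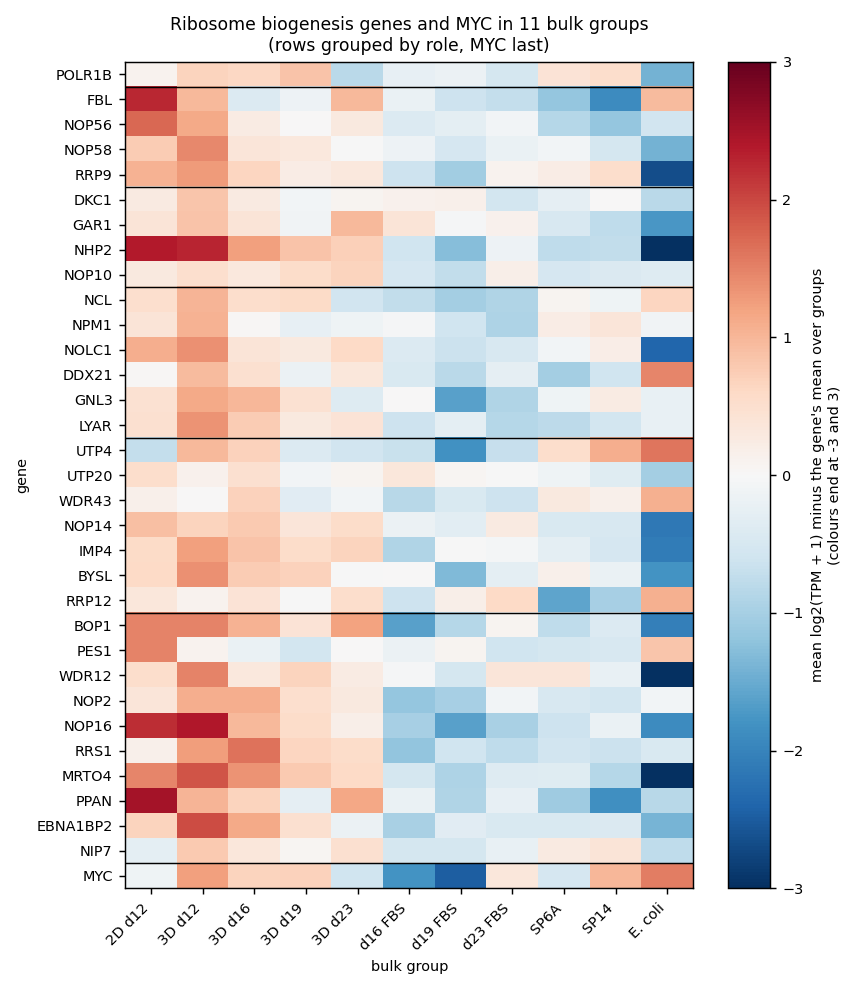
Heat map of the 32 ribosome biogenesis genes, in rows ordered by role, and MYC in the last row, over the 11 bulk groups in columns; the colour is the group mean of log2(TPM + 1) minus the gene's mean over groups, with colours ending at -3 and 3. Most rows are highest at 2D or 3D day 12 and lower in the groups with FBS, SP6A and SP14, while MYC is high in SP14 and with E. coli.

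The first comparison sets the 3D product against the 2D product at day 12. Of the 32 members, 13 rose and 4 fell in 3D by limma's moderated test (adjusted p under 0.05 over 13131 genes), where 13% of all genes rose and 24.7% fell. The median log2 change was 0.50 over the members and -0.21 over all genes tested. By role, 3 of 7 small subunit factors, 5 of 10 large subunit factors, 3 of 6 chaperones or scaffolds, 1 of 4 C/D proteins and 1 of 4 H/ACA proteins rose, and 2 C/D proteins and 2 large subunit factors fell. With median-ratio scaling 2387 genes rose and 2538 fell in place of 1710 and 3249, without mitochondrial and clone-named genes 2170 and 2651, and of the members 17 and 16 rose and 3 fell in each. In 16 members every 3D library was above every 2D library, in 4 every one was below, and in 12 the groups overlapped. No share of all genes is given beside these counts, so they do not set the members apart. In bulk RNA, fewer cells of a type and less RNA per cell cannot be told apart.

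UTP4, an early factor of the small subunit processome, had the largest rise. It was at 4.42, 3.45, 6.94 and 9.59 TPM in 2D and at 18.1, 21.3, 21.5 and 20.9 TPM in 3D, so that the lowest 3D library was above the highest 2D library (log2 change 1.68 ± 0.27, adjusted p = 0.00216). EBNA1BP2, a large subunit assembly factor, was at 32.7, 33.9, 39.5 and 33.4 TPM in 2D and 69.3, 81.4, 88.3 and 111 TPM in 3D (log2 change 1.29 ± 0.18, adjusted p = 0.00128). RRS1, which helps to build the 5S particle into the large subunit, was at 5.26, 3.55, 2.74 and 2.39 TPM in 2D and 6.76, 7.38, 11.2 and 8.23 TPM in 3D (log2 change 1.08 ± 0.24, adjusted p = 0.00873). For both genes all 4 libraries of 3D were higher than all 4 of 2D. MYC moved the same way, from 5.91, 10.7, 15 and 8.71 TPM in 2D to 24.8, 26.0, 28.5 and 24.7 TPM in 3D (log2 change 1.35 ± 0.25, adjusted p = 0.00404), again without overlap.

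PPAN and PES1, both large subunit assembly factors, fell. PPAN was at 47.0, 63.2, 45.8 and 59.5 TPM in 2D and 15.3, 23.6, 14.3 and 22.3 TPM in 3D (log2 change -1.48 ± 0.22, adjusted p = 0.00147). PES1, which forms a complex with BOP1 and WDR12, was at 44.9, 46.7, 84.7 and 65.0 TPM in 2D and 27.9, 26.4, 24.7 and 11.8 TPM in 3D (log2 change -1.39 ± 0.32, adjusted p = 0.01). Its 2 partners did not follow: WDR12 rose (log2 change 0.98, adjusted p = 0.0117), while BOP1 was at 19.4, 18.7, 22.0 and 20.4 TPM in 2D and 19.2, 20.7, 24.1 and 17.4 TPM in 3D, with overlapping groups (log2 change 0.01, adjusted p = 0.978).

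Among the snoRNP proteins, fibrillarin (FBL), the methyltransferase of C/D snoRNPs, fell from 276.5, 250.1, 251 and 259 TPM in 2D to 137, 95.6, 97.8 and 96.7 TPM in 3D (log2 change -1.29 ± 0.17, adjusted p = 0.000937). Its partner NOP56 also fell (log2 change -0.59, adjusted p = 0.0137), whereas the close relative NOP58 rose (log2 change 0.68, adjusted p = 0.0141). Dyskerin (DKC1), the pseudouridine synthase of H/ACA snoRNPs, was at 26.6, 16.3, 21.3 and 19.9 TPM in 2D and 28.4, 34.0, 27.5 and 35.8 TPM in 3D, without overlap (log2 change 0.57 ± 0.19, adjusted p = 0.0453). The other 3 H/ACA proteins did not pass the test.

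All 6 nucleolar chaperones or scaffolds had a positive log2 change and 3 of them rose. Nucleophosmin (NPM1), which chaperones ribosomal proteins and histones, was at 411, 375, 329 and 358 TPM in 2D and 579.7, 594, 664 and 501 TPM in 3D (log2 change 0.66 ± 0.16, adjusted p = 0.0121). NCL was at 66.8, 89.8, 84.5 and 61.1 TPM in 2D and 94.5, 92.1, 122 and 126 TPM in 3D, where every 3D library was higher but the test was not passed (log2 change 0.52 ± 0.20, adjusted p = 0.0687). With median-ratio scaling NCL passed it (log2 change 0.73, adjusted p = 0.0199). POLR1B, a catalytic subunit of RNA polymerase I, overlapped between 4.59, 0.770, 1.56 and 1.76 TPM in 2D and 3.45, 2.42, 4.65 and 2.94 TPM in 3D (adjusted p = 0.226).

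Of the other genes of the pathway, 13 of 45 tested small subunit factors rose and 6 fell, and 8 of 46 large subunit factors rose and 4 fell. The 79 cytosolic ribosomal protein genes went another way, with 2 higher and 20 lower in 3D. Of 15 textbook MYC targets outside the pathway, 6 rose and 1 fell. Markers of other cell types moved with these results: 8 of 8 megakaryocyte markers fell (summed 716.3 to 1244.9 TPM in 2D, 21.0 to 47.5 TPM in 3D), as did 6 of 6 tested granulocyte progenitor markers (1600.5 to 3012.8 against 67.9 to 176.9 TPM). Of 9 tested erythroid markers 3 fell (3427.3 to 4405.2 against 27.7 to 1724.4 TPM), and of 4 endothelial markers 3 fell and 1 rose (241.5 to 279 against 70.2 to 128.9 TPM). Markers of dividing cells, 12 genes such as MKI67 and PCNA, summed to 763.5 to 830.5 TPM in 2D and 831.9 to 1069.7 TPM in 3D, with 5 higher and 3 lower. Their part in the result was not tested. DKC1 and IMP4 lost their call without any of 7 of the 8 libraries, and GNL3 without 4. The calls of the 4 members that fell held in every such fit, but that of NOP56 was lost with median-ratio scaling (log2 change -0.38, adjusted p = 0.0629) and without mitochondrial and clone-named genes (-0.42, adjusted p = 0.0582).

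The 3D culture was also followed from day 12 to days 16, 19 and 23. Members fell at each later day and none rose: 4 fell at day 16, 7 at day 19 and 13 at day 23, by limma over 13384 genes. At an unadjusted p under 0.05 by limma, 7, 12 and 16 members were lower and 0 were higher. No share of all genes is given at this looser cut. At the adjusted cut, 10.3% of all genes were called higher and 6.25% lower for day 16. The shares were 6.37% and 5.39% for day 19, and 10.5% and 15.1% for day 23. The median log2 change of the members was -0.48, -0.95 and -0.79 at the 3 days, against 0.18, 0.04 and -0.10 over all genes. Median-ratio scaling gave 762 higher and 1426 lower genes for day 16 in place of 1382 and 837, and 671 and 1112 for day 19 in place of 853 and 722 (1133 and 551 without mitochondrial and clone-named genes). The 3 comparisons use the same 4 day 12 libraries, so they are not independent of each other. In 15 members at day 16, and in 21 each at days 19 and 23, every later library was below every day 12 library. Here too no share of all genes is given beside the counts.

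FBL followed its own course. From the day 12 values of 137, 95.6, 97.8 and 96.7 TPM it went to 42.2, 35.1 and 42.6 TPM at day 16 and 57.3, 38.3 and 50 TPM at day 19, then to 147, 85.2 and 94.2 TPM at day 23. It fell at day 16 (log2 change -1.38 ± 0.27, adjusted p = 0.000905) and at day 19 (log2 change -1.12 ± 0.27, adjusted p = 0.00718), and at day 23 the groups overlapped (log2 change 0.00, adjusted p = 1). The day 19 call was lost without day 19 replicate 2 (adjusted p = 0.0553). NOP56, its partner, stayed lower at all 3 days, with log2 changes of -0.89, -1.14 and -0.84 (adjusted p = 0.0295, 0.00782 and 0.0286). Its day 16 call was lost without day 12 replicate 1, 2 or 3 or day 16 replicate 1 or 3 (adjusted p from 0.0520 to 0.147), and its day 23 call without day 12 replicate 2 or 3 or day 23 replicate 1 or 2 (0.0508 to 0.0920).

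NHP2, a core H/ACA protein, fell at each day. It was at 326, 325, 332 and 352 TPM at day 12 and at 163, 140.3 and 179 TPM at day 16, 116, 123 and 133 TPM at day 19 and 121, 109 and 104 TPM at day 23. No later library reached the day 12 range, and the log2 changes were -1.05 ± 0.33, -1.42 ± 0.33 and -1.57 ± 0.33 (adjusted p = 0.031, 0.00552 and 0.00121). The day 16 call was lost without any 1 of the 7 libraries (adjusted p from 0.0566 to 0.111). Its partner NOP10 had overlapping groups at days 19 and 23 and log2 changes of -0.20, 0.04 and 0.16, none of which passed the test, though with median-ratio scaling the day 16 change did (-0.55, adjusted p = 0.0289). DKC1 was at 13.1, 20.9 and 31.8 TPM at day 16, 18.3, 16.9 and 13.2 TPM at day 19 and 20.5, 21.4 and 13.2 TPM at day 23 (adjusted p = 0.714, 0.575 and 0.565). DKC1 differed widely between the 2 E. coli libraries of the same fit, and without them it fell at days 19 and 23 (log2 change -0.92 and -0.76, adjusted p = 0.0262 and 0.0424).

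NPM1 fell at all 3 days, from 579.7, 594, 664 and 501 TPM to 272, 237 and 367 TPM at day 16, 299, 245 and 182 TPM at day 19 and 294, 258 and 225 TPM at day 23. The log2 changes were -1.02, -1.29 and -1.17 (adjusted p = 0.00179, 0.00025 and 0.00031), and the groups never overlapped. NCL was at 86.3, 59.0 and 85.1 TPM at day 16 and 91.4, 78.0 and 70.0 TPM at day 19, below all day 12 libraries but short of the threshold (adjusted p = 0.244 and 0.378). With median-ratio scaling the day 16 value of NCL passed (log2 change -0.85, adjusted p = 0.0194). In the 3 libraries of day 23 NCL was at 33.4, 36.8 and 34.9 TPM and had fallen (log2 change -1.59 ± 0.27, adjusted p = 0.00017). DDX21, an RNA helicase of the nucleolus, was at 26.5, 20.2, 22.8 and 24.0 TPM at day 12 and 10.3, 10.5 and 9.61 TPM at day 19 (log2 change -1.12 ± 0.22, adjusted p = 0.00118).

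In small subunit assembly, UTP4 was at 15.9, 13.7 and 20.9 TPM at day 16, 16.6, 4.59 and 4.75 TPM at day 19 and 4.37, 8.28 and 7.18 TPM at day 23. One day 19 library was near the day 12 level while the other 2 were far below, and UTP4 fell at day 19 (log2 change -1.37 ± 0.38, adjusted p = 0.019) and day 23 (log2 change -1.53 ± 0.38, adjusted p = 0.00478). The day 19 call was lost without day 19 replicate 2 (adjusted p = 0.131) or 3 (0.111). In large subunit assembly, NOP16 and EBNA1BP2 had the largest changes of day 23. NOP16 went from 147, 141, 132 and 148 TPM at day 12 to 23.1, 28.3 and 39.2 TPM at day 23 (log2 change -2.23 ± 0.80, adjusted p = 0.043), and EBNA1BP2 from 69.3, 81.4, 88.3 and 111 to 20.6, 26.0 and 12.3 TPM (log2 change -2.14 ± 0.79, adjusted p = 0.0497). Neither gene's groups overlapped, yet both calls were lost when any single library of the 2 days was left out. BOP1 was at 14.0, 13.4 and 16.5 TPM at day 16, 9.30, 9.59 and 8.52 TPM at day 19 and 18.2, 20.6 and 12.1 TPM at day 23 and passed the test at none of them (adjusted p = 0.481, 0.0701 and 0.663). At day 19 the change of BOP1 was -1.07 on the log2 scale, and it did pass with array weights (adjusted p = 0.00264), in the fit of the groups compared only (0.0092), without the E. coli libraries (0.0189) and with median-ratio scaling (0.0325).

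POLR1B was at 1.73, 3.37 and 4.86 TPM at day 16, at 15.5, 1.01 and 2.52 TPM at day 19, where 1 library stood far above the others, and at 0.620, 0.430 and 0.550 TPM at day 23. It fell at day 23 (log2 change -1.49 ± 0.46, adjusted p = 0.0212), a call that was lost without day 12 replicate 3 (adjusted p = 0.0606), day 23 replicate 2 (0.0622) or day 23 replicate 3 (0.0554). MYC was at 16.3, 16.7 and 19 TPM at day 16, 19.1, 22.8 and 12.7 TPM at day 19 and 8, 5.74 and 6.39 TPM at day 23. All of these were below the day 12 range, and MYC passed the test at day 23 (log2 change -1.82 ± 0.29, adjusted p = 7e-05 against an adjusted p = 0.213 at day 16 and 0.292 at day 19), and the differences between days were not tested. With median-ratio scaling MYC passed the test at day 16 too (log2 change -0.89, adjusted p = 0.0331), and in the fit of the groups compared only (-0.56, adjusted p = 0.0354).

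Among the rest of the pathway, cytosolic ribosomal protein genes fell in number: 41 of 79 at day 16, 39 at day 19 and 25 at day 23, when 5 rose. Other small subunit factors fell in 1, 3 and 13 of 46, other large subunit factors in 2, 4 and 12 of 45, and textbook MYC targets in 5, 6 and 9 of 15, at days 16, 19 and 23. ODC1, the first enzyme of polyamine synthesis, fell by 1.67, 2.28 and 2.62 on the log2 scale at the 3 days (adjusted p = 0.000176, 6.48e-06 and 5.06e-07). Markers of dividing cells fell in 10 of 12 at days 16 and 23 (summed 132.8 to 185.6 and 251.8 to 288.2 TPM, against 831.9 to 1069.7 TPM at day 12) and in 0 of 12 at day 19 (548.5 to 661.3 TPM). The day 19 sum was thus also below that of every day 12 library, with no single marker of division called. Macrophage markers rose in 11, 6 and 4 of 16 at days 16, 19 and 23. Markers of other cell types fell as well. Erythroid markers summed to 27.7 to 1724.4 TPM at day 12 and to at most 5.3 TPM later, with 4 of 5 tested lower at each day. Granulocyte progenitor markers went from 67.9 to 176.9 TPM to at most 24.7 TPM, again with 4 of 5 lower. Lymphoid markers went from 193.4 to 224.9 TPM to 4.9 to 16.9 and 14.9 to 27 TPM at days 16 and 19 and were at 154.2 to 179.6 TPM at day 23. Mast, basophil or eosinophil markers summed to 873.3 TPM in day 19 replicate 1, the library with high POLR1B and UTP4. They were at 7.7 TPM in replicate 2 and 11.3 TPM in replicate 3, and at 0 to 371.9 TPM at day 12. The part of any of these lists in the members' changes was not tested.

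Leaving out 1 library moved these counts. At day 16, 3 members fell without day 12 replicate 4 or day 16 replicate 2, and 2 fell without any other library, FBL and NPM1. At day 19, 4 fell without day 19 replicate 2. At day 23, 5 fell without day 12 replicate 3, 6 without day 23 replicate 2 or 3, and 8 without day 12 replicate 4 or day 23 replicate 1; MRTO4, NCL, UTP4, NHP2 and NPM1 fell in all of these fits. In a fit without the E. coli libraries, 6, 13 and 16 members fell at days 16, 19 and 23. For this fit the share of all genes is not given.

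**Figure D2:**
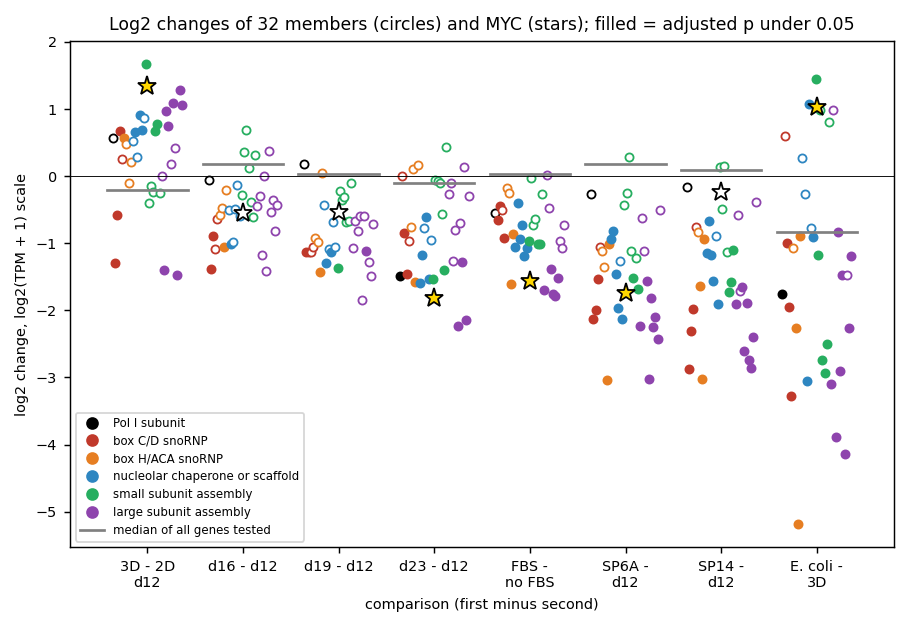
Log2 changes of the 32 members in each bulk comparison: each circle is a member on the log2(TPM + 1) scale (filled where limma's adjusted p is under 0.05), stars are MYC and the grey line is the median of all genes tested. The members lie mostly above the line in 3D against 2D and mostly below it in the other comparisons, while the star of MYC lies near 0 in SP14 and above 0 with E. coli.

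With the label FBS, the 3D libraries of days 16, 19 and 23 were compared with those of the same days without it, as the mean of the 3 differences (9 libraries against 9). In this comparison 19 of the 32 members fell and none rose, where 15.7% of all genes fell and 18.6% rose. At an unadjusted p under 0.05, limma had 24 members lower and 0 higher, with no share of all genes given at this looser cut. The median log2 change was -0.89 over the members and 0.04 over all genes. All 6 nucleolar chaperones or scaffolds fell, as did 3 of 4 C/D proteins, 2 of 4 H/ACA proteins, 3 of 7 small subunit factors and 5 of 10 large subunit factors. Of the 3 C/D calls, that of NOP56 was lost in 13 of the 18 fits that leave out 1 library (adjusted p from 0.0554 to 0.11), that of RRP9 in 9 (0.0522 to 0.0709), and both in 7, while that of FBL was lost in none. The count was 17 to 20 when any 1 library was left out and 24 in the fit without the E. coli libraries. The share of all genes in these fits is not given.

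RRS1 had a lowest value of 3.39, a median of 5.88 and a highest of 14.5 TPM without FBS and a lowest value of 0, a median of 1.34 and a highest of 2.66 TPM with it, so the groups did not overlap (log2 change -1.79 ± 0.32, adjusted p = 0.000175). NOP16 had a lowest value of 23.1, a median of 39.2 and a highest of 64.2 TPM without FBS and a lowest value of 3.67, a median of 8.36 and a highest of 24.0 TPM with it, where 2 libraries with FBS lay above the lowest without it (log2 change -1.76 ± 0.49, adjusted p = 0.0079). BOP1 had a lowest value of 8.52, a median of 13.4 and a highest of 20.6 TPM without FBS and a lowest value of 0.210, a median of 3.62 and a highest of 8.17 TPM with it, again without overlap (log2 change -1.70 ± 0.23, adjusted p = 7.2e-06). NHP2 also kept the groups apart, with a lowest value of 104, a median of 123 and a highest of 179 TPM without FBS and a lowest value of 21.3, a median of 44.8 and a highest of 73.9 TPM with it (log2 change -1.60 ± 0.20, adjusted p = 2.98e-06).

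NCL had a lowest value of 33.4, a median of 70.0 and a highest of 91.4 TPM without FBS and a lowest value of 21.1, a median of 27.4 and a highest of 37.4 TPM with it, so that the groups overlapped narrowly (log2 change -1.06 ± 0.17, adjusted p = 4.69e-05). NPM1 moved less, with a lowest value of 182, a median of 258 and a highest of 367 TPM without FBS and a lowest value of 131, a median of 188 and a highest of 336 TPM with it (log2 change -0.41 ± 0.13, adjusted p = 0.0209), and lost its call without day 16 replicate 3 (adjusted p = 0.0531) and without mitochondrial and clone-named genes (0.0860). The call of NOP16 was lost with a pseudocount of 0.1 (adjusted p = 0.0620). DKC1, with a lowest value of 13.1, a median of 18.3 and a highest of 31.8 TPM without FBS and a lowest value of 6.75, a median of 18.1 and a highest of 23.7 TPM with it, overlapped (adjusted p = 0.833). POLR1B had a lowest value of 0.290, a median of 1.17 and a highest of 2.13 TPM with FBS and did not pass the test (log2 change -0.55, adjusted p = 0.145).

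By day, 12 members fell with FBS at day 16, 10 at day 19 and 3 at day 23, where 10.1%, 12.2% and 4.86% of all genes fell. The interaction of FBS with day was called for 2 members, FBL (adjusted p = 0.00925) and NOP2 (adjusted p = 0.0409), and for MYC (adjusted p = 5.42e-06), against 12.9% of all genes. At an unadjusted p under 0.05 the interaction held for 6 members, with no share of all genes given at this looser cut. FBL was at 47.2, 38.8 and 53.1 TPM with FBS at day 16, 42.1, 26.9 and 34.9 TPM at day 19 and 49.3, 28 and 23.9 TPM at day 23, so that the FBS groups were all low while the day 23 group without FBS was high. The log2 change of FBL was 0.20 at day 16, -0.48 at day 19 and -1.69 at day 23 (adjusted p = 0.7, 0.241 and 0.00033).

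NOP2, which methylates cytosines of the large ribosomal RNA, went the other way in time: its log2 change was -2.26 at day 16, -1.51 at day 19 and -0.38 at day 23. Its values with FBS were 2.74, 4.12 and 3.91 TPM, 3.65, 5.57 and 3.22 TPM and 10.4, 9.43 and 6.41 TPM at the 3 days, against 19.1, 23.3 and 20.1 TPM, 14.0, 16.5 and 10.3 TPM and 8.39, 12.0 and 14.7 TPM without it. The interaction of NOP2 was lost without any day 16 library lacking FBS, day 19 replicate 1 or 2, day 23 replicate 1 or 2, FBS day 16 replicate 1 or 3, FBS day 19 replicate 1, or FBS day 23 replicate 1 or 2. In the fit without the E. coli libraries the interaction was called for 7 members, and with a pseudocount of 0.1 for 1. Both counts stand without the share of all genes.

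MYC was at 2.01, 2.01 and 3.12 TPM with FBS at day 16 and 2.64, 0.230 and 1 TPM at day 19, below every library without FBS, and at 13.1, 10.9 and 17.8 TPM at day 23, above every day 23 library without it. The log2 change was -2.46, -3.17 and 0.94 (adjusted p = 1.02e-05, 2.73e-07 and 0.0459). The day 23 call of MYC was lost with median-ratio scaling (log2 change 0.74, adjusted p = 0.112), with a pseudocount of 0.1 (0.186), without a filter on low values (0.0602) and without mitochondrial and clone-named genes (0.0505). At day 23 MYC was higher in all 3 libraries with FBS, and 3 of the 32 members fell, where 4.86% of all genes fell. A negative log2 change was seen in 29 of the 32 members, with no share of all genes given beside it. The sums of the dividing markers were 132.8 to 186.9, 145.9 to 326.8 and 88.2 to 253.7 TPM with FBS, and 10 of 12 fell over the 3 days. Endothelial markers summed to 266.3 to 376 TPM with FBS at day 19, against 119.9 to 184.6 TPM without it, and 1 of 3 tested rose over the 3 days. Lymphoid markers were at 32.5 to 40 TPM with FBS at day 23 against 154.2 to 179.6 TPM. Of 16 macrophage markers 5 rose and 3 fell. The part of these lists in the members' changes was not tested. Over the same comparison 59 of 79 ribosomal protein genes fell and 1 rose, 12 of 46 other small subunit factors and 10 of 45 other large subunit factors fell, and 11 of 15 textbook MYC targets fell. The 1 MYC target that rose was ODC1 (log2 change 1.26, adjusted p = 6.88e-06). The share taken by clone-named genes was higher with FBS at days 16 and 19 (17.95% to 32.28% of TPM) than without it (12.47% to 21.28%), and when these and the mitochondrial genes were left out 16 members fell.

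The SP6A and SP14 libraries were compared with 3D day 12. Their samples carry no day, so time and whatever SP6A and SP14 stand for cannot be told apart, and both comparisons share the day 12 libraries. In SP6A 19 members fell and none rose, where 10.8% of all genes fell and 17.1% rose. In SP14 21 fell and none rose, where 13% of all genes fell and 18.4% rose. At an unadjusted p under 0.05, limma had 23 members lower and 0 higher in each, with no share of all genes given at this looser cut. The median log2 change of the members was -1.40 in SP6A and -1.57 in SP14, against 0.18 and 0.09 over all genes. With median-ratio scaling 1605 genes rose and 2118 fell in SP6A in place of 2290 and 1446, and 1811 and 2378 in SP14 in place of 2457 and 1744, while 23 members fell in each. Both libraries were below all 4 of day 12 in 29 members for SP6A and in 28 for SP14. These counts again have no share of all genes beside them.

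NHP2 had the largest change in both groups, at 41.1 and 38.6 TPM in SP6A and 36.6 and 43.9 TPM in SP14 against at least 325 TPM at day 12. Its log2 changes were -3.04 ± 0.37 and -3.02 ± 0.37 (adjusted p = 2.38e-06 and 1.88e-06). DKC1 was at 14.2 and 13.6 TPM in SP6A and 16.8 and 17.5 TPM in SP14, below day 12 in all libraries but not past the threshold (adjusted p = 0.431 and 0.571). Without the E. coli libraries DKC1 fell in both (log2 change -1.12 and -0.83, adjusted p = 0.00951 and 0.0465). FBL was at 22.8 and 23.8 TPM in SP6A and 13.8 and 13.4 TPM in SP14, below every library of the other groups. It fell in both (log2 change -2.13 ± 0.31, adjusted p = 1.58e-05 for SP6A, and log2 change -2.87 ± 0.31, adjusted p = 2.54e-07 for SP14).

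NOP16 was at 17.1 and 16.2 TPM in SP6A and 25.2 and 20.1 TPM in SP14, far under its day 12 range (log2 change -3.02 ± 0.90, adjusted p = 0.0147 for SP6A). EBNA1BP2 was at 16.8 and 13.8 TPM in SP6A and 15.2 and 15.9 TPM in SP14 (log2 change -2.43 ± 0.89, adjusted p = 0.0461 for SP6A). PPAN was at 2.63 and 4.72 TPM in SP6A and 4.65 and 0.290 TPM in SP14, where its 2 libraries differed widely (log2 change -2.85 ± 0.75, adjusted p = 0.00554 for SP14). The calls of these 3 genes were lost when either library of the group was left out in SP6A, and PPAN's in SP14 was lost without SP14 replicate 2 (adjusted p = 0.205). In SP14 the call of EBNA1BP2 was lost without any 1 of the 6 libraries (adjusted p from 0.0584 to 0.182), and in SP6A likewise (0.0605 to 0.221). The call of NOP16 in SP14 was lost in 5 of these 6 fits, all but that without day 12 replicate 3.

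BOP1 was at 2.98 and 4.08 TPM in SP6A and 5.77 and 3.75 TPM in SP14 and fell in both (log2 change -2.24, adjusted p = 0.00037, and -1.90, adjusted p = 0.00143). NCL was at 56.2 and 54.9 TPM in SP6A and 44.5 and 52.0 TPM in SP14 (log2 change -0.94 and -1.15, adjusted p = 0.0269 and 0.00686). NPM1 moved less, at 319 and 344 TPM in SP6A and 360.2 and 369 TPM in SP14 (log2 change -0.81 and -0.67, adjusted p = 0.0148 and 0.0381). The NPM1 call was lost without either SP6A library (adjusted p = 0.120 and 0.0770), and in SP14 without either SP14 library or day 12 replicate 1, 2 or 3 (0.0622 to 0.173). The NCL call was lost without either SP6A library or day 12 replicate 3 or 4 in SP6A (0.0593 to 0.149), and without SP14 replicate 1 in SP14 (0.0839). POLR1B, at 3.14 and 2.05 TPM and 2.42 and 3.32 TPM, overlapped with day 12 in both (adjusted p = 0.754 and 0.867). UTP4 was the one member above all day 12 libraries in SP14, at 23.2 and 21.9 TPM, without passing the test (log2 change 0.13, adjusted p = 0.864).

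MYC was at 6.22 and 7.99 TPM in SP6A and fell (log2 change -1.74 ± 0.33, adjusted p = 0.000326). In SP14 it was at 18.9 and 25.1 TPM, overlapping with day 12 (log2 change -0.24 ± 0.33, adjusted p = 0.642). The mean sums of the members were 1169 and 1215 TPM in these 2 groups, at unlike levels of MYC. The textbook MYC targets fell in 10 of 15 in both, among them LDHA by 3.02 in SP6A and 2.8 in SP14 (adjusted p = 2.56e-07 and 5.06e-07). Ribosomal protein genes fell in 54 of 79 in SP6A and 75 of 79 in SP14, other small subunit factors in 6 and 7 of 46 and other large subunit factors in 7 and 7 of 45. Dividing markers summed to 606.2 to 650.5 TPM in SP6A and 645.4 to 695.7 TPM in SP14, with 3 of 12 lower and 1 higher in each. Macrophage markers rose in 10 of 16 in each group (summed 22366.5 to 22969.4 and 20797.9 to 20901.6 TPM, against 9361.9 to 11971 TPM at day 12). Endothelial markers summed to 367.8 to 379.1 TPM in SP6A and 333.2 to 356 TPM in SP14 against 70.2 to 128.9 TPM at day 12, with 1 of 3 tested higher in each. Granulocyte progenitor markers were at 18.3 to 26.9 TPM over both groups, with 3 of 5 lower in each, and lymphoid markers at 24.2 to 38 TPM. The part of these lists in the result was not tested.

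With 2 libraries in each of these groups, leaving 1 out assumes that the other varies like the rest of the groups. Then 10 and 8 members fell without SP6A replicates 1 and 2, and 11 without either SP14 replicate, and the counts without any 1 of the day 12 libraries were 14 to 16 for SP6A and 14 to 17 for SP14. FBL, NOP56, NHP2, NOP10, DDX21, LYAR, MRTO4 and BOP1 fell in every one of these fits in both comparisons. In the fit without the E. coli libraries 23 fell in SP6A and 22 in SP14, with no share of all genes given for this fit.

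**Figure D3:**
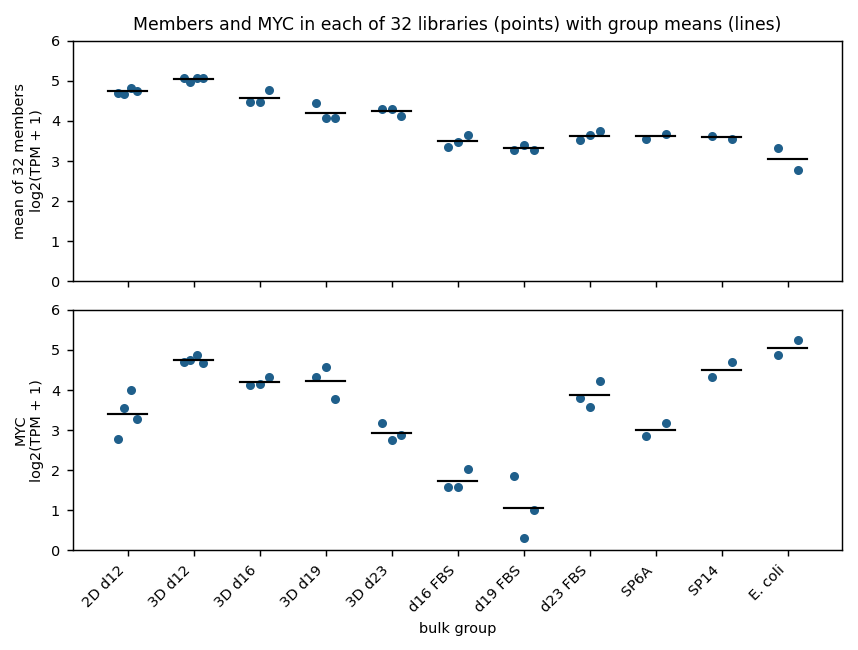
Mean log2(TPM + 1) of the 32 members (upper panel) and of MYC (lower panel) in each of the 32 bulk libraries, 1 point a library, by group, with a bar at the group mean. The group mean of the members is highest at 3D day 12, and SP14 and E. coli pair high MYC with low members' means.

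The 2 libraries with E. coli were compared with the 13 3D libraries without FBS, since they carry no day. In this comparison 21 members fell and 2 rose, where 42.9% of all genes fell and 13.7% rose, and the median log2 change was -1.33 over the members and -0.84 over all genes. The 2 libraries disagreed on many members: 9 were listed at 0 in each, 4 of them in both, and of the 18 above 0 in both, 11 differed more than 2-fold between the libraries. POLR1B, RRP9, NOP14 and UTP20 were listed at 0 in both libraries. With array weights, which give libraries that vary more a lower weight, 2 members fell and 0 rose.

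NHP2 was at 8.96 and 1.07 TPM with E. coli, against a lowest value of 104, a median of 140.3 and a highest of 352 TPM in the 13 libraries (log2 change -5.19 ± 0.33, adjusted p = 2.55e-11). MRTO4, a large subunit factor related to the stalk protein P0, was at 0 and 0.390 TPM against a lowest value of 10.1, a median of 19.4 and a highest of 44.1 TPM (log2 change -4.14 ± 0.33, adjusted p = 9.59e-10). WDR12 was at 0.150 and 0 TPM against a lowest value of 5.91, a median of 21.0 and a highest of 31.3 TPM (log2 change -3.88 ± 0.60, adjusted p = 1.17e-05). In all 3 genes both E. coli libraries were below the range of the 13, and BOP1, at 0 and 2.33 TPM, was too (log2 change -3.09, adjusted p = 4.68e-07).

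The 2 members that rose were UTP4, at 24.4 and 43.3 TPM against a lowest value of 4.37, a median of 15.9 and a highest of 21.5 TPM (log2 change 1.44 ± 0.38, adjusted p = 0.00275), and DDX21, at 28.8 and 39.3 TPM against a lowest value of 9.61, a median of 16.4 and a highest of 26.5 TPM (log2 change 1.07 ± 0.22, adjusted p = 0.000256). Both E. coli libraries were above the whole range, and the UTP4 call was lost without E. coli replicate 2 (adjusted p = 0.0824). Without that replicate 6 members rose, and without day 23 replicate 1 there were 4. DKC1 was at 107 and 0 TPM in the 2 libraries: with the first alone its log2 change was 2.31 and with the second alone -4.44, so no direction is given. NCL was at 132 and 52.3 TPM, FBL at 134 and 79.9 TPM and NPM1 at 232 and 298 TPM, and none passed the test (adjusted p = 0.423, 0.062 and 0.281). FBL did pass with median-ratio scaling (log2 change 0.79, adjusted p = 0.0127), with a filter at 5 TPM (0.0482), with the replicate block (0.0412) and without mitochondrial and clone-named genes (0.0347).

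MYC was at 28.4 and 36.9 TPM with E. coli, against a lowest value of 5.74, a median of 19 and a highest of 28.5 TPM, with 1 library inside that range and 1 above it, and rose (log2 change 1.03 ± 0.29, adjusted p = 0.00421), a call that was lost without E. coli replicate 2 (log2 change 0.85, adjusted p = 0.0607) and with array weights (adjusted p = 0.651). Of the other lists, 68 of 79 ribosomal protein genes, 29 of 46 small subunit factors and 25 of 45 large subunit factors fell. All 12 dividing markers fell, with 4 or 5 of 12 detected and a sum of 29.6 to 39.6 TPM. Erythroid markers were at 0 in one E. coli library and summed to 3483.7 TPM in the other. Mast, basophil or eosinophil markers summed to 1152.8 and 1908.6 TPM with E. coli, against 0 to 873.3 TPM in the 3D libraries without FBS. What these values contribute to the members' changes was not tested.

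Across the 11 group means the relation of the members to MYC was weak in the median and uneven. Pearson's r with MYC on the log2(TPM + 1) scale had a median of 0.19 over the members (Spearman's rho 0.16) and was above 0 for 27 of 32. It was above 0.5 for 6 of 32 members, where 6% of all genes were above 0.5, and the median over all genes was -0.13 (quartiles -0.42 and 0.15). Across the groups r was highest for UTP4 (0.81), NCL (0.74) and NOP2 (0.66), and lowest for UTP20 (-0.42), GAR1 (-0.32) and DKC1 (-0.15). The 11 points share 1 cell line and 1 table.

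The relation rested on a few groups. Without the E. coli group, where MYC was highest and the members' mean lowest, the median r was 0.55 and 19 members were above 0.5, against a median of 0.01 and 15.9% of all genes. Without the 2 groups farthest from the median MYC level, FBS at days 16 and 19, it was -0.12 over the other 9, against -0.21 over all genes. Over the 3D groups alone it was 0.22, against -0.14 over all genes. Within groups, where each library is set against its group mean, the median r over 32 libraries was 0.02, and 0.14 without the 2 E. coli libraries. Over all genes these medians were 0.05 and 0.07. The mean log2(TPM + 1) of the members was 5.04 at 3D day 12 with MYC at 4.75, and 3.59 in SP14 with MYC at 4.51. UTP4 and NCL, which had the highest r over the 11 groups, kept at least 0.68 and 0.53 across these choices of groups, but within groups their r was 0.43 and 0.01 (0.42 and 0.13 without the E. coli libraries).

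**Figure D4:**
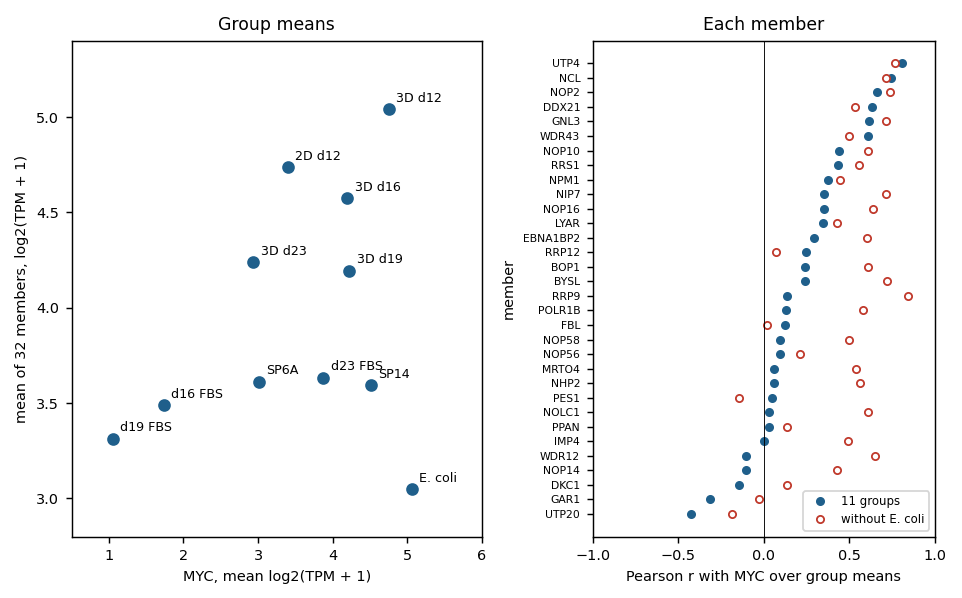
Left, the mean log2(TPM + 1) of the 32 members against that of MYC, 1 point for each of the 11 group means; right, each member's Pearson r with MYC over the 11 groups (filled) and without E. coli (open). Most open circles lie to the right of the filled ones, with medians of 0.55 and 0.19.

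The single-cell libraries hold counts of unique molecules (UMIs). After filters on depth, detected genes and mitochondrial share, and removal of 230, 476 and 381 doublets called by Scrublet, 6537, 11251 and 7580 cells were kept at days 7, 9 and 12, with median depths of 24171, 13003 and 16607 UMIs. Between 17 and 24 cell barcodes were shared by any 2 libraries. With 1 library a day there is no test, and a day cannot be told apart from its library. The cells fell into 14 clusters, built without 276 genes that include the members and MYC, and only clusters 7 and 8 were macrophage-like, with 1421 and 689 of the 7580 cells at day 12. So most cells go against the label macrophage: over the 3 days the macrophage-like clusters held 2580 cells, against 3927 endothelial-like, 3789 mesenchymal or fibroblast-like, 2825 megakaryocyte-like and 2501 erythroid-like cells. Among the 2580, the name is less sure for the 135 and 316 cells of cluster 8 at days 7 and 9, as described below.

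Between whole libraries the members moved little. Of the 14, 13 and 14 members at 50 CPM (UMIs scaled to the same total in each pool) or more in the pair of days, 0 were higher and 1 was lower by 1.5-fold at day 9 against day 7 (6.42% of all genes were higher and 3.21% lower), 1 was higher and 1 lower at day 12 against day 9 (15.1% and 24.8% of all genes), and 1 was higher and 2 lower at day 12 against day 7 (16.8% and 20.6%). NPM1 went from 1819 CPM at day 7 (95% Poisson interval 1812 to 1825, counting error only) to 1141 CPM at day 9 and 1164 CPM at day 12. NOP10 went from 181.4 and 178.4 to 289.8 CPM, WDR43, a small subunit factor, from 96.7 and 116.0 to 70.0 CPM, and FBL from 152.1 and 139.7 to 97.7 CPM. MYC was at 60.1 CPM at day 7, 27.9 CPM at day 9 and 34.5 CPM at day 12. These values mix cell types whose shares differ between the days.

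The members' share of all UMIs differed between days inside clusters too. For clusters 5, 6 and 8, a finer clustering into 26 clusters put most day 12 cells apart from day 7 cells. Day 9 cells mostly shared finer clusters with day 7 cells. A difference between days 7 and 12 in these clusters thus compares cells that mostly fall into different finer clusters. In the megakaryocyte-like cluster 5 the share was 0.537%, 0.327% and 0.167% at days 7, 9 and 12, with MYC at 83.7, 28 and 15.5 CPM. The finer clustering split it into a megakaryocyte-like cluster with 1132, 901 and 20 cells at the 3 days, at 0.539% and 0.399% at days 7 and 9, and another with 15, 693 and 207 cells, at 0.206% and 0.101% at days 9 and 12. In the erythroid-like cluster 6 the share was 0.601%, 0.478% and 0.258%, with MYC at 214.0, 113.0 and 67.5 CPM. Its finer counterpart held 771, 788 and 21 cells, at 0.604% and 0.508% at days 7 and 9, while 219 day 12 cells formed an erythroid-like cluster of their own at 0.246%. In cluster 8, macrophage-like and led by MRC1, the share was 0.691%, 0.749% and 0.475%, with MYC at 76.6, 68.1 and 56.1 CPM. At the finer resolution 624 day 12 cells formed a macrophage-like cluster, also led by MRC1, at 0.445% with MYC at 52.1 CPM. It held 0 cells of day 7 and 7 of day 9. The name macrophage-like is thus not borne out there for most cells of cluster 8 at days 7 and 9. An unnamed cluster led by CD3D, RUNX3 and JAML held 139, 307 and 79 cells of the 3 days, about as many at days 7 and 9 as cluster 8 (135 and 316). There the share was 0.684%, 0.758% and 0.730% and MYC was at 75.1, 69.4 and 89.2 CPM, so that day 12 lay between days 7 and 9 in the share.

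The endothelial-like cluster 1 was low throughout, at 0.222%, 0.199% and 0.173%. The other macrophage-like cluster, number 7, led by the chemokines CCL3L1 and CCL4 and by IL1B, had 0.353% at day 12 with MYC at 29.8 CPM. Depth differed between these cells, with a median of 28902 UMIs in cluster 7 and 32593 in cluster 8 at day 12.

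NPM1 and NCL carried much of this share. In cluster 8 at day 12 NPM1 was at 1380 CPM and NCL at 864 CPM, against 1080 and 581 CPM in cluster 7 and 391 and 250 CPM in endothelial-like cells of the same library. NOP10 did not follow: it was at 449 and 446 CPM in clusters 8 and 7 at day 12 and at 220 CPM in endothelial-like cells. DKC1 was at 104, 70.7 and 25.2 CPM, and BOP1 at 30.3, 21.7 and 14.3 CPM, in the same order.

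Over the 13 clusters of at least 200 cells, r of the members with MYC on the log2 CPM scale had a median of 0.69. This r was above 0 for 30 members and above 0.5 for 22. Over the 7410 genes compared, a subset of the 36601, the median was -0.25 and 15.5% were above 0.5. All 32 members were counted whatever their level, and no share is given for genes matched to them in level. These values thus do not set the members apart from genes of like level. LYAR, a nucleolar protein of growing cells, had the highest r (0.89), followed by NOP16 (0.82) and DKC1 (0.80), and UTP20 (-0.29) and RRP12 (-0.08) had the lowest. UTP20 was thus lowest both here and across the bulk groups, and UTP4, highest in bulk, had 0.17 here. The mean of the members had an r of 0.78 with MYC and of 0.91 with the dividing markers. With a finer clustering into 26 clusters, 23 of them of that size, the median was 0.61. The clusters share 3 libraries and differ in depth.

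Cells were then grouped by their MYC UMIs after thinning each cell to 5000 UMIs. Cells with at least 2 MYC UMIs numbered 384, 209 and 172 at days 7, 9 and 12, and cells with 0 numbered 5007, 8813 and 6323. A cell with 0 MYC UMIs at this depth may still express MYC. The fold between the classes was above 1 for all 32 members on each day, with a median of 1.74, 2.14 and 1.58. Genes were then compared at the same level, 50 CPM or more in both classes pooled, a filter added after the data were seen, in which the far fewer cells of the high-MYC class weigh little. It kept 11, 12 and 10 members, with a median fold of 1.74, 2.15 and 1.53, against 0.878, 0.876 and 0.98 over all genes kept. Of these members 10, 11 and 8 were higher by at least 5 to 4 and none was lower, where 18.2%, 21.0% and 13.2% of all genes were higher and 43.1%, 42.9% and 24.4% lower at days 7, 9 and 12. Without thinning, the median folds of the 32 members were 1.89, 1.82 and 1.79, with median depths of 21419 against 31149, 11796 against 21448 and 14457 against 30190.5 UMIs.

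NOP16 had the largest fold, at 14.9, 14.1 and 13.3 CPM in cells with 0 MYC UMIs and 39.1, 52.6 and 52.3 CPM in cells with at least 2, on days 7, 9 and 12. At day 9 DKC1 went from 69.6 to 205.0 CPM, NCL from 511.0 to 1210 CPM and BOP1 from 11.3 to 36.4 CPM. NOP10 was nearly flat at day 9, at 169.0 and 176.0 CPM, as were PES1 (21.1 and 21.4 CPM) and UTP20 (23.7 and 24.5 CPM) at day 7. In the median cell the members gave 17, 14 and 13 of the 5000 UMIs with 0 MYC UMIs and 30, 30 and 17 with at least 2.

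Cell type and division differed between the classes. The share of cells with an MKI67 or TOP2A UMI was 27.5% and 30.5% at day 7, 32% and 51.7% at day 9 and 27.2% and 43.6% at day 12 (0 against at least 2 MYC UMIs; 95% exact binomial intervals at day 12 of 26.1% to 28.3% and 36.1% to 51.4%, counting error only). No cluster here is known to lack division, so the part of free RNA in these shares was not tested. At day 7 the erythroid-like cluster 6 held 220 of the 384 cells with at least 2 MYC UMIs, against 360 of the 5007 with 0. The megakaryocyte-like cluster 5 held 96 and 800 of them. At day 9 cluster 6 held 110 of 209 cells, against 596 of 8813. Macrophage-like cells made up 27.6% and 41.3% of the classes at day 12. The part of these differences in the folds over all cells was not tested. Within single clusters with at least 50 cells in each class the median fold, with the same filter, was smaller than over all cells of the day in each of 4 contrasts. It was 1.11 in mesenchymal or fibroblast-like cluster 2 at day 12, against 0.957 over all genes, 1.14 in cluster 5 and 1.12 in cluster 6 at day 7, against 1.01 and 1.03, and 1.79 in cluster 6 at day 9, against 1.03. In the macrophage-like clusters together at day 12, an alternative added after the data were seen, 10 of 14 members were higher and none lower, with a median fold of 1.42 (71 against 1747 cells), where 16.6% of all genes were higher and 18.2% lower with a median of 1.02. Cells with an MKI67 or TOP2A UMI were 70.4% against 52.4%. In cluster 8 alone, with at least 1 against 0 MYC UMIs, that share was 77.7% in both classes and the median fold was 1.16 over 16 members, against 1 over all genes. Clusters 7 and 8 differ at day 12 in MYC (29.8 and 56.1 CPM) and in the members' share of UMIs (0.353% and 0.475%). The part of this difference in the fold over both was not tested, and the finer clusters were not separated within cluster 8.

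**Figure D5:**
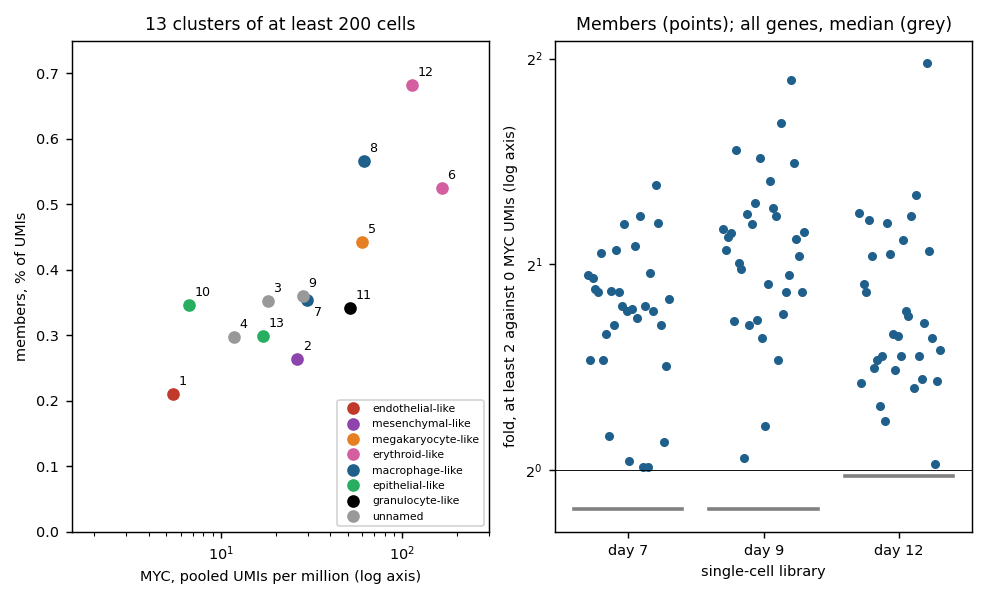
Left, the members' share of all UMIs in percent against MYC in CPM (log axis) for the 13 clusters of at least 200 cells; right, the fold of each member between cells with at least 2 and with 0 MYC UMIs on days 7, 9 and 12 (log axis), with a grey bar at the median of all genes at 50 CPM or more in both classes pooled. Clusters with more MYC mostly have a larger share of members, and every fold lies above 1.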

How the data were processed

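Bulk RNA was isolated with TRIzol and made into SMART-seq2 libraries, and single cells were run on the 10x platform, per the labels' protocols. The authors deposited bulk values as TPM; the submitters' processing notes name Trim Galore 0.4.4, HISAT2, HTSeq 0.11.1, DESeq2, Cell Ranger and the build hg38 (GRCh38), but no source used here names the tool behind the TPM. No bulk counts are given, so depth is unknown and no count test was run. The single-cell matrices hold the deposited UMI counts. Chromatin libraries were not used here, and no column of per-sample values was left over (0).

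From the TPM, limma 3.58.1 (R 4.3.3) was fitted to log2(TPM + 1) for genes with a mean of at least 1 TPM, with Benjamini-Hochberg adjustment over all genes tested and a threshold of 0.05. Fold changes on this scale understate the change of low genes. The 2D comparison used 8 libraries, and all others came from 1 fit of the 28 3D libraries. The fits were tested on simulated data: of 100 genes given a log2 change of 2, 75% were recovered in 3D against 2D, 95% in the FBS comparison and 42% in SP14. With a log2 change of 1 these were 22%, 52% and 7%, and 13%, 23% and 12% for days 16, 19 and 23. A member that did not pass the test may thus still have changed.

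Single cells with at least 1000 UMIs, 500 genes and at most 15% mitochondrial counts were kept, Scrublet removed doublets, and scanpy 1.11.5 clustered the rest on 2000 variable genes and 30 principal components at a resolution of 0.5. Pooled counts were scaled to CPM. A cluster was named from its markers; clusters 3, 4, 9 and 14 were left unnamed.

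Values by library are given for the 3 largest called changes in each direction of a comparison, for MYC, FBL, NCL, NPM1, DKC1, BOP1 and POLR1B throughout, and for the 3 genes with the highest and the lowest r; other members serve as contrasts, chosen after their values were seen. The members and lists were chosen with earlier results of these data known. Alternatives were another pseudocount, filter, scaling or weighting, the replicate block, and leaving out libraries.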

Additional observations from a re-analysis of the deposited data

Results flagged for a closer look

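In 4 of the 66 groups of 4 libraries examined (33 genes in 2 groups), 1 library stood far from the other 3 of its group, and chance flags about 1 in 20 groups. FBL was at 136.91 TPM in 3D day 12 replicate 1, against 95.56 to 97.78 TPM in the other 3. IMP4 was at 144.79 TPM in 3D day 12 replicate 3, against 84.35 to 94.41 TPM. DDX21 was at 9.74 TPM in 2D replicate 2, against 12.46 to 13.02 TPM, and NOP16 at 160.98 TPM in 2D replicate 4, against 110.61 to 117.93 TPM.

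The effect of FBS differed between days 16, 19 and 23 for 3 genes by limma's test of the interaction. The adjusted p was 0.00925 for FBL, 5.42e-06 for MYC and 0.0409 for NOP2.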

How the results depend on the processing

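Of 915 alternatives to 81 single-gene results, 796 kept the direction and the side of the threshold, 75 lost a call, 30 gained one, 13 moved and 1 reversed; of 357 alternatives to 31 counts, 291 stayed within 1.5 times. The reversal was DKC1 in E. coli against 3D without FBS, with a log2 change of 2.31 (adjusted p = 4.5e-05) without E. coli replicate 2, against -4.445 without replicate 1 and -1.07 with both. Several alternatives moved the count of members that fell. The counts that follow are given without the share of all genes called in the same fit, so they do not set the members apart. At day 16 it was 8 with median-ratio scaling, array weights or a fit of the groups compared only (added after seeing the data), 2 without mitochondrial and clone-named genes, and 1 member rose with array weights. At day 19 it was 19 with array weights, 13 without the E. coli libraries and 17 in the fit of the groups compared only. At day 23 it was 7 with a pseudocount of 0.1, 8 without a filter and 6 without mitochondrial and clone-named genes. In SP6A it was 12 with a pseudocount of 0.1. With E. coli it was 2 with array weights, and the members that rose were 4 with a filter at 5 TPM or without mitochondrial and clone-named genes, 6 with median-ratio scaling and 0 with array weights. The interaction was called for 1 member with a pseudocount of 0.1, median-ratio scaling or no mitochondrial and clone-named genes, and for 7 with array weights or without the E. coli libraries. The cause was not tested.

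Leaving out 1 library at a time gave ranges of 10 to 13 members that rose and 4 that fell in 3D against 2D, and of 2 to 3, 4 to 7 and 5 to 9 that fell at days 16, 19 and 23. They were 17 to 20 with FBS, 1 to 2 for the interaction, 8 to 16 in SP6A, 11 to 17 in SP14, and 17 to 21 that fell and 2 to 6 that rose with E. coli.

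The replicate numbers did not pair the samples: over 26 pairs the correlation of deviations was -0.12 to 0.04, and 5 libraries correlated best with their own number. With the replicate number as a block, 2 members fell at day 16 and 8 at day 23, and the other counts stayed within 1.5 times.

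In single cells, with a fold of 2 no member was past it in the day comparisons that had 1 or 2 at 1.5-fold (0 each), and median-ratio scaling left 0 lower at day 12 against days 9 and 7. With a filter of 50 CPM in either class, which a member can pass through the high-MYC class alone, 17, 20 and 14 members were higher at days 7, 9 and 12 with at least 2 against 0 MYC UMIs; with the filter on both classes pooled, added after seeing the data, it was 10, 11 and 8, as fewer genes pass. At day 12, with the filter on either class, 8 were higher with at least 1 against 0 MYC UMIs and 8 among non-dividing cells. The median r with MYC was 0.55 without the E. coli group and -0.12 without the 2 groups farthest from the median MYC level. Over all genes it was 0.01 and -0.21. Bulk precision is limited by 2 to 4 libraries a group.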
